A study of Arabidopsis thaliana with 6 samples.

Results

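Regions centred in a coding exon are candidate SOC1-GFP sites that fall inside the protein-coding part of a gene, away from the promoters where transcription factors are usually sought. They were taken from the deposited list of candidate regions as those whose centre overlapped an annotated coding sequence and no 5' UTR, and they numbered 2433 of 24032. The list came from chromatin immunoprecipitation with sequencing (ChIP-seq) of shoot apices of Arabidopsis thaliana. Both groups carried the soc1-2 mutation, which removes the function of the native gene, and plants of both had a genomic SOC1 transgene under its own promoter. In gSOC1-GFP (line 7) the transgene was fused to GFP (the mGFP6 variant), and in untagged gSOC1 (line 9) it was not, so each genotype was represented by 1 transgenic line. Plants were given 15 short days followed by 3 long days, and apices were harvested at zeitgeber time 4. An antibody against GFP was used, and the untagged libraries therefore measured reads recovered without the tag. Each group had 3 libraries, and the labels do not say whether these came from separate plants. The p-values of the tests run here therefore measure the spread between libraries, which may be technical.

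SOC1 is a MADS-domain transcription factor that promotes the transition to flowering at the shoot apex. MADS-domain proteins bind DNA as dimers at CArG-box elements, and SOC1 is known for acting on floral regulators through regions near gene starts. A coding exon can also carry such an element, and the start of a neighbouring gene can lie close to it.

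The 6 libraries differed in depth, and this limited what could be measured within coding exons. The gSOC1-GFP libraries held 663108, 183668 and 262776 listed reads in replicates 1, 2 and 3, and the untagged libraries held 396326, 41073 and 61963. The top-ranked region of the list, which lies upstream of SOC1 itself (AT2G45660), held 2018, 808 and 1038 reads with the tag and 74, 5 and 18 without it. Coding-exon regions were shallow: the median region held 7, 4 and 6 reads in the tagged libraries and 3, 1 and 1 in the untagged libraries. In the untagged library of replicate 2, 1046 of the 2433 regions (43.0%) had no read. The median total over all libraries was 21 reads and the median length 162 bp, against 25 reads and 174 bp for regions centred in introns and 48 reads and 230 bp for regions with no annotation at their centre.

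Few coding-exon regions were enriched in every replicate. In all 3 replicates 6 of the 2433 regions had an FDR (false discovery rate, as the authors computed it) below 0.05, a share of 0.247%, against 1.12% of all listed regions. Each FDR belongs to 1 replicate, with 1 tagged and 1 untagged library, so it measures no spread between libraries. The 6 regions are referred to as called. Their centres lay in AT5G03700, AT4G28564, CYP78A9, AT1G67856, AT1G04280 and AT2G39560, and of these genes the gene table used here names CYP78A9 alone. The quasi-likelihood test of edgeR, fitted over all listed regions with the replicate number as a block and with library size set to the column total, called 6 coding-exon regions (0.247%) against a background of 0.878%, all higher in gSOC1-GFP. The methods shared 5 regions: AT1G04280 passed the authors' FDR alone, and AT2G38480 passed edgeR alone. No coding-exon region was called lower by edgeR, where 3 were lower and 38 higher at an unadjusted p under 0.05, and DESeq2 also called 0 lower. Without the replicate block edgeR called 0 coding-exon regions, against a background of 0.0749%, and the adjusted p of its 6 calls then ran from 0.104 to 0.592. In that fit 102 were higher and 2 lower at an unadjusted p under 0.05. The unadjusted counts of both fits are out of 2433 regions, were not set against all listed regions and are not read as enrichment. With the block and without replicate 1 it called 2 (background 0.208%), which were AT5G03700 and AT4G28564, and it called 6 without replicate 2 (background 0.695%) and 7 without replicate 3 (background 0.895%). TMM scaling (trimmed mean of M values) in place of column totals left 3 calls (background 0.379%), in AT5G03700, CYP78A9 and AT1G67856. A filter on low counts gave 7 calls (background 3.14%), and 8 with TMM scaling as well (background 2.83%), while DESeq2 with the block gave 4 of the 82 coding-exon regions it tested (background 4.77%).

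The strongest of these by rank lay in AT5G03700, on chromosome 5 from 967073 to 967440. It held 352, 138 and 112 reads in gSOC1-GFP replicates 1, 2 and 3, and 6, 3 and 3 reads in the untagged libraries. Per 1000000 listed reads (RPM), the lowest tagged library stood at 426 and the highest untagged library at 73.0, so the groups did not overlap. The log2 enrichment of tagged over untagged reads, with counts scaled to column totals and a prior count of 1, was 3.72 ± 0.96 (SD, n = 3 pairs), a 13.2-fold difference (edgeR adjusted p = 2.96e-08). This region held its edgeR call with TMM scaling (adjusted p = 0.00176) and without replicate 1 (adjusted p = 0.0101). The centre lay 2206 bp upstream of FBA4, a fructose-bisphosphate aldolase gene of glycolysis. A second coding-exon region of AT5G03700, from 966016 to 966187, held 30, 12 and 15 reads with the tag and 3, 1 and 6 without it, and its log2 enrichment of 0.90 ± 1.46 lay within the spread between pairs.

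The region in AT4G28564, on chromosome 4 from 14118188 to 14118503, held 226, 127 and 129 reads with the tag and 27, 2 and 7 without it. Every tagged library stood above every untagged library, at 341 RPM or more against 113 or fewer. The log2 enrichment was 2.69 ± 0.90 (SD, n = 3; edgeR adjusted p = 0.000351; 0.104 with TMM scaling). The gene table used here did not list AT4G28564. The region faced the starts of its neighbours on both sides. It lay 978 bp upstream of RIC7, which encodes an interactor of ROP signalling GTPases, and 1079 bp upstream of AT4G28570.

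CYP78A9 encodes a cytochrome P450 known for promoting the growth of floral organs and fruit. Its region, on chromosome 3 from 22906465 to 22906916, was centred in a coding exon of both transcripts the list gives and held 163, 81 and 90 reads with the tag and 7, 5 and 3 without it. Tagged libraries ranged from 246 to 441 RPM and untagged libraries from 17.7 to 122, with no overlap. The log2 enrichment was 2.70 ± 0.86 (SD, n = 3; edgeR adjusted p = 6.94e-05, and 0.384 without replicate 1). No gene start faced this region from nearby: AT3G61870, 2620 bp to one side, and the homeobox gene HB-12, 7463 bp to the other, both pointed their ends toward it.

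The region in AT1G67856, on chromosome 1 from 25442692 to 25443079, held 134, 59 and 57 reads with the tag and 3, 0 and 4 without it. All tagged libraries stood at 202 RPM or more, and the untagged libraries at 64.6 or fewer. Its log2 enrichment of 4.11 ± 2.38 (SD, n = 3) was the highest mean of the called coding-exon regions, but the pair with an untagged count of 0 contributed 6.45, a value set by the prior count. With a prior count of 10 the mean was 2.33. The edgeR adjusted p was 5.25e-06, and 0.288 without replicate 1. The centre lay 9 bp upstream of the next gene, AT1G67855.

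In AT1G04280 the untagged signal was high. Its region, on chromosome 1 from 1143606 to 1144016, held 315, 132 and 107 reads with the tag and 146, 4 and 7 without it. In RPM the untagged library of replicate 1 reached 368, close below the lowest tagged library at 407. The log2 enrichment was 0.36, 2.84 and 1.82 in pairs 1, 2 and 3 (mean 1.67 ± 1.24), and edgeR did not call the region (adjusted p = 0.432). The authors' FDR was 2.82e-05, 2.87e-18 and 1.14e-09 in these replicates. The centre lay 757 bp upstream of RPS15, a gene of the small ribosomal subunit.

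AT2G39560 and AT2G38480 lay at the edge of the calls. The region in AT2G39560, on chromosome 2 from 16505307 to 16505572, held 91, 27 and 34 reads with the tag and 3, 2 and 2 without it. Its groups did not overlap in RPM, and its log2 enrichment was 2.35 ± 1.13 (SD, n = 3; edgeR adjusted p = 0.00291; 0.0833 with TMM scaling and 1.0 without replicate 1). The region in AT2G38480, on chromosome 2 from 16111157 to 16111427, held 92, 22 and 21 reads with the tag and 3, 1 and 2 without it. The gene encodes a CASP-like membrane protein, of the family that holds the proteins of the Casparian strip domain, and the region lay 525 bp beyond the end of WRKY33, a regulator of pathogen responses. Its log2 enrichment was 2.34 ± 1.23 (SD, n = 3; edgeR adjusted p = 0.00593; 0.0919 with TMM scaling and 1.0 without replicate 1), and in replicate 3 the authors' FDR of 0.0922 left it outside. Beside it outside the FDR stood AT5G62560, with a largest FDR of 0.0614 over the replicates and a log2 enrichment of 1.40 ± 0.63, and CYP707A1, which encodes an abscisic acid 8'-hydroxylase, with 0.0922 and 0.88 ± 0.40. edgeR called neither (adjusted p = 1.0 for both).

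**Figure D1:**
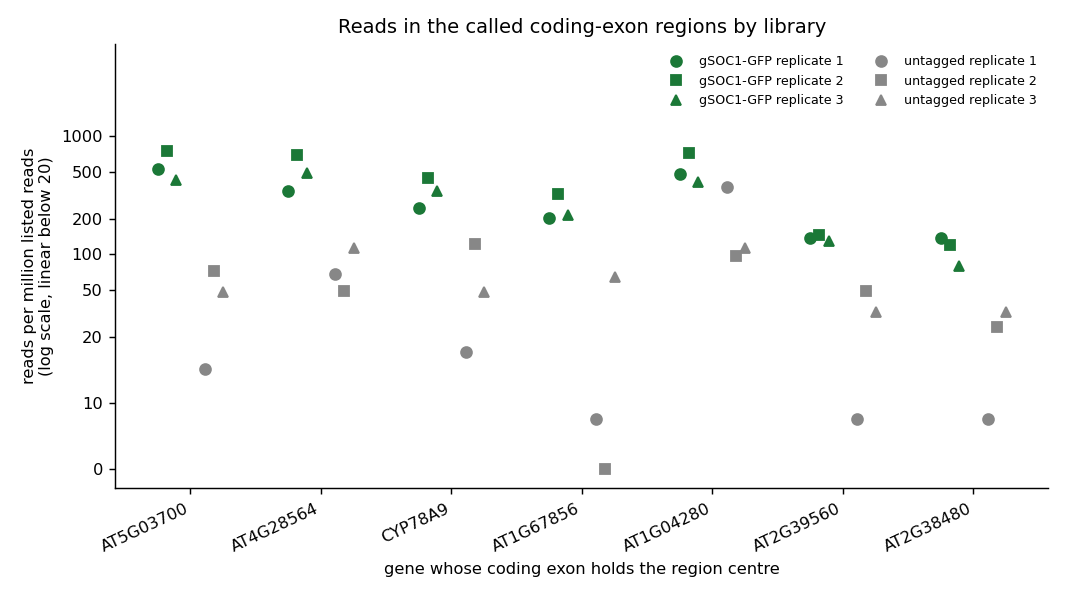
Reads per 1000000 listed reads (log scale, linear below 20) of each library in the 7 coding-exon regions past the authors' FDR in all replicates or past edgeR, with 1 point per library. Each tagged library lies above each untagged library of its region, with the narrowest gap at AT1G04280, where the untagged library of replicate 1 reached 368.

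Scaled to column totals, the lowest tagged library stood above the highest untagged library at 268 coding-exon regions (11.0%) and at 8.34% of all regions. The reverse held at 2 (0.0822%) and at 0.333% of all regions. This reverse order cannot occur where an untagged count is 0, as in 14.3%, 43.0% and 33.5% of coding-exon regions in replicates 1, 2 and 3. Tagged counts of 0, which bar the first order, made up 0.904%, 7.73% and 0.575%, so the counts did not have equal room. The called coding-exon regions were long and deep for their class: their median length was 378 bp and their median total 434 reads. Among the other 264 called regions these medians were 338 bp and 281 reads. Such totals include the tagged reads on which the calls rest. The median log2 enrichment of the called coding-exon regions was 2.70, within a range from 1.67 to 4.11, beside 2.35 for the other called regions.

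Called regions were found among the deep and long ones. Regions with at least 100 reads made up 5.67% of the coding-exon regions, and all 6 called ones were among them. This total counts tagged and untagged reads together, so enrichment itself helps a region reach it, and depth and call are not independent. Of the 138 coding-exon regions at this depth 4.35% were called, against 5.84% of all regions at this depth, beside 0.247% and 1.12% at any depth. At the same depth 12.3% of intron regions (15 of 122), 7.45% of 3' UTR regions (12 of 161) and 14.7% of 5' UTR regions (16 of 109) were called. Of regions with no annotation at their centre 5.41% were called (208 of 3842). By length, 0 of the 1733 coding-exon regions under 200 bp were called, as were 0 of all 10948 listed regions of that length, while 2.65% of coding-exon regions of 300 bp or more were called against 4.03% of all regions of that length. These shares are counts of regions that share their libraries, and the part of depth and length in them was not tested.

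**Figure D2:**
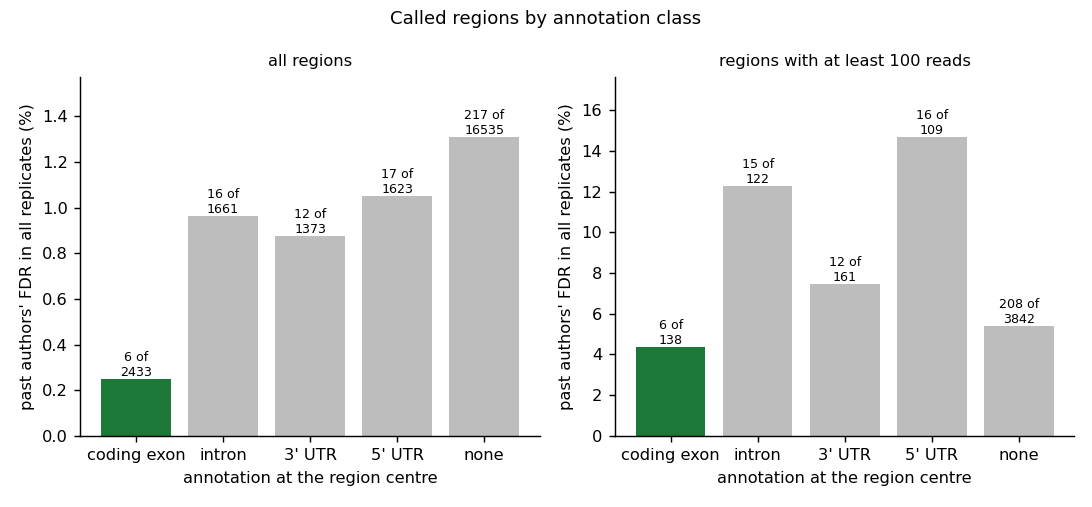
Percentage of regions past the authors' FDR in all 3 replicates by the annotation at their centre, for all listed regions and for those with at least 100 reads over the 6 libraries, with the counts above each bar. Coding-exon regions stand at 0.247% of all and at 4.35% of the deeper regions.

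As a class, coding-exon regions took a similar share of reads with and without the tag. They held 4.76%, 6.54% and 6.87% of the listed reads in gSOC1-GFP replicates 1, 2 and 3, and 4.42%, 7.26% and 6.43% in the untagged libraries. The means were 6.06% ± 1.14 and 6.04% ± 1.46 (SD, n = 3), and the difference of 0.0189 percentage points was far below the spread between libraries (exact two-sided permutation p = 1.0, where 0.1 is the smallest that 3 against 3 libraries allow). Replicate 1 held the lowest share in both groups. The difference changed sign without replicate 1 (-0.139) and without replicate 3 (-0.19). It was -0.172 without the called regions, which were chosen as higher with the tag, so leaving them out lowers it by construction.

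Coding-exon reads were also set against intron and 3' UTR reads with the exact test, which does not use the pairs. Its smallest p with 3 against 3 libraries is 0.1, so no ratio could pass 0.05, and no absence of a difference is read from it. The log2 ratio of coding-exon to intron reads was 0.26 ± 0.06 in gSOC1-GFP and 0.46 ± 0.14 in untagged libraries (SD, n = 3), a difference of -0.20 (exact two-sided permutation p = 0.2, adjusted over 2 ratios p = 0.4). By pair this difference was -0.36, -0.26 and 0.01. The log2 ratio to 3' UTR reads was 0.29 ± 0.18 and 0.34 ± 0.14, a difference of -0.05 (exact two-sided permutation p = 0.7, adjusted p = 0.7). The called regions held 4.06%, 4.69% and 2.93% of the coding-exon reads in the tagged libraries and 1.10%, 0.537% and 0.652% in the untagged libraries, and had been chosen on this difference.

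**Figure D3:**
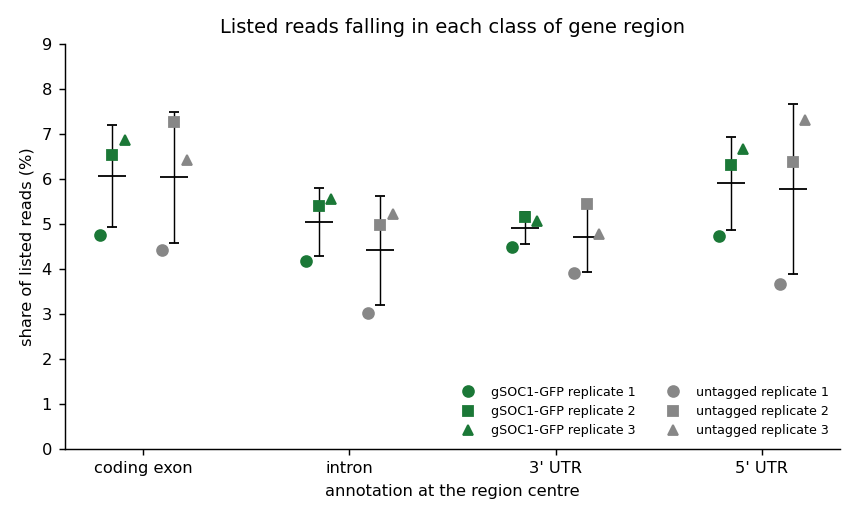
Share of the listed reads (%) in each library that fell in regions centred in a coding exon, an intron, a 3' UTR or a 5' UTR, with black marks for the mean and SD of 3 libraries. The coding-exon means of 6.06% and 6.04% lie within the spread of either group, and replicate 1 holds the lowest share of coding-exon reads in both.

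Over single regions, the median log2 enrichment of coding-exon regions was 0.40, 0.14 and 0.39 in pairs 1, 2 and 3, beside 0.30, 0.14 and 0.13 for all listed regions. The region means had a median of 0.49, against 0.28 for all regions. This median fell with depth. It was 0.61 for coding-exon regions with 10 to under 30 reads, 0.19 for those with 30 to under 100 reads and -0.06 for those with 100 or more, beside 0.50, 0.22 and -0.01 for all regions of these depths. With a prior count of 10, which pulls regions of few reads toward no enrichment, the median was 0.07. The spread between pairs was wide, with a median SD of 1.42 at 10 to under 30 reads and 0.86 at 100 or more.

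The pairs did not order the coding-exon regions alike. Spearman's rho of the log2 enrichment across the 2433 regions was -0.04 for pairs 1 and 2, -0.10 for pairs 1 and 3 and -0.10 for pairs 2 and 3. Regions are not independent replicates, they share libraries, and most hold few reads. Of the coding-exon regions 2310 passed the authors' FDR in no replicate, 102 in 1, 15 in 2 and 6 in 3, so that 21 passed in at least 2 (0.863%, background 2.62%). Replicate 1, the deepest, accounted for 105 of the passes (4.32%, background 10.1%), against 25 in replicate 2 (1.03%, background 2.86%) and 20 in replicate 3 (0.822%, background 3.16%). Enrichment was above 0 in all 3 pairs at 460 regions (18.9%, background 16.6%) and below 0 in all 3 at 65 (2.67%, background 4.19%). Among the 138 regions with at least 100 reads these numbers were 16 (11.6%) and 15 (10.9%), beside 14.0% and 10.8% of all regions of that depth.

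At least 2-fold enrichment in every pair, with 30 or more reads in all, was reached by 14 coding-exon regions (0.575%, background 1.5%; 1.79% of the 780 with 30 or more reads, background 2.36%). They comprised 5 of the called regions, AT2G38480 and 8 shallower regions. Of the 14, 8 had an untagged count of 0 in at least 1 library, and 5 kept 2-fold in every pair with a prior count of 10. Among the shallower ones, SNG1 encodes the sinapoyltransferase that forms sinapoylmalate, a protectant against ultraviolet light. Its region held 12, 11 and 7 reads with the tag and 2, 0 and 0 without it, a log2 enrichment of 2.81 ± 1.40 (SD, n = 3) that became 0.85 with a prior count of 10. AT2G28510 held 23, 10 and 14 tagged reads against 5, 0 and 0 (3.04 ± 1.57, and 1.04 with a prior count of 10). AT1G52155 held 31, 22 and 13 against 2, 2 and 0 (2.53 ± 1.30, and 1.03), and its region lay 3426 bp upstream of ATHB-15, a homeodomain gene of meristem and vascular patterning.

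AT1G43980 held 21, 12 and 16 reads with the tag and 2, 0 and 1 without it, and AT3G11760 held 15, 8 and 7 against 3, 0 and 0. AT1G77746 held 33, 11 and 11 against 8, 0 and 1, and CYP71B12, another cytochrome P450 gene, held 15, 9 and 12 against 3, 0 and 1. In AT1G76360 the pairs were closest, at 1.71, 1.51 and 1.15, from 33, 14 and 20 tagged reads against 5, 1 and 2. In all 8 shallower regions every tagged library stood above every untagged library except AT1G52155, where tagged replicate 1 lay at 46.8 RPM and untagged replicate 2 at 48.7. edgeR called none of these 8 regions, at adjusted p from 0.18 to 1.0. A region in CYP71B14, a cytochrome P450 gene, on chromosome 5 from 8695969 to 8696272, was called by edgeR with the filter on low counts and, separately, without replicate 3, and was not called over all regions and libraries (adjusted p = 0.0839). It held 43, 22 and 24 reads with the tag and 0, 1 and 4 without it, and its log2 enrichment was 4.20, 2.14 and 0.48 in pairs 1, 2 and 3, the last below 2-fold. AT1G76360, AT1G77746 and CYP71B12 were outside the rule for naming genes and were named after their values were seen.

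**Figure D4:**
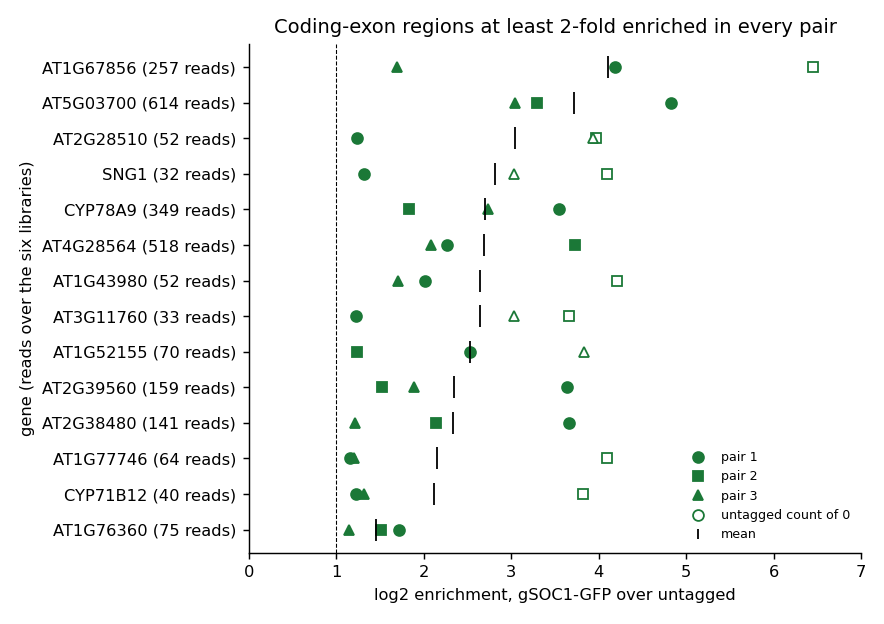
Log2 enrichment of gSOC1-GFP over untagged reads in each of 3 pairs for the 14 coding-exon regions at least 2-fold in every pair (dashed line at 1), with open symbols where the untagged count was 0 and a bar at the mean. The highest pair values of the shallower regions are mostly open symbols, such as 4.09 for SNG1.

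The coding-exon regions with the most untagged reads were not called. Choosing them by untagged reads lowers their enrichment by construction. The highest untagged RPM, averaged over libraries, was in a region of the mitochondrial gene ATMG00090. It held 55.8, 234 and 399.6 RPM in the tagged libraries and 55.5, 706 and 646 in the untagged libraries. On nuclear chromosomes AT1G49420, AT1G79480, CSLG3, a cellulose synthase-like gene, and AT5G43000 followed. AT1G49420 held 233, 23 and 19 reads with the tag and 254, 11 and 2 without it, and CSLG3 held 188, 18 and 12 against 216, 8 and 3. The mean log2 enrichments of these 4 nuclear regions ran from -0.66 ± 0.50 at CSLG3 to -0.29 ± 1.19 at AT1G49420. None passed edgeR (adjusted p = 1.0 for each). Most untagged reads of these regions came from replicate 1, the deepest untagged library, with 396326 listed reads against 41073 and 61963 in replicates 2 and 3.

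The lowest mean enrichment among coding-exon regions with 30 or more reads was -1.39 ± 1.79 (SD, n = 3) in AT3G19070, where 12, 8 and 17 tagged reads stood against 4, 12 and 19 untagged reads. The pairs went in different directions, at 0.66, -2.65 and -2.18 (edgeR adjusted p = 0.357). AT3G47250, AT1G62920, PHOT1, which encodes a blue-light receptor, and AT5G37430 came next, the first 3 at -1.19, -1.15 and -1.10, with SDs from 1.32 to 2.77 that exceeded each mean. None of them passed edgeR (adjusted p = 1.0 for each).

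With all lists pooled, the listed genes had coding-exon regions about as often as all protein-coding genes. Single lists, of 13 to 19 genes each, ran from 0% to 33.3% (shoot meristem) of their genes, and none of these regions was called. Of 96 genes listed for flowering, floral organs, light and clock, shoot meristem and housekeeping functions, 40 had a region centred within them, and in 8 (8.33%) such a region lay in a coding exon, beside 8.32% of all protein-coding genes. The shoot meristem list held 5 of these, among 15 genes. The lists of floral integrators, of light and clock and of housekeeping genes held 1 each, among 16, 19 and 14 genes, and the 19 flowering repressors and 13 floral organ genes held 0; no list was tested against another. No region of the 8 passed the authors' FDR in all replicates, edgeR or DESeq2, none had an unadjusted edgeR p under 0.05, and none was 2-fold in every pair. The median of their mean log2 enrichments was 0.24, beside 0.49 for all coding-exon regions, and their totals ran from 14 to 48 reads. Of all listed regions with 10 to under 30 reads 0% were called by either method. With 30 to under 100 reads 0.11% passed the authors' FDR and 0.165% passed edgeR, so the absence of calls here says little. PRR5, a component of the circadian clock, held 16, 5 and 18 reads with the tag and 8, 0 and 1 without it (1.71 ± 1.42, SD, n = 3). LFY, the floral meristem identity gene, held 5, 3 and 9 against 7, 2 and 1 (-0.46 ± 1.23), and WUS, which maintains the stem cells of the shoot, held 4, 2 and 5 against 1, 2 and 0 (0.47 ± 2.23). Also among the 8 were REV, PHB and MP of the meristem list and UBQ10, a ubiquitin gene, from 0.20 in PHB to 1.36 ± 2.41 in UBQ10, except MP at -0.23.

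Coding-exon regions were spread over 2369 genes, of which 2294 were protein-coding in the gene table used here. Chromosomes 1 to 5 held 657, 350, 451, 366 and 608 of the regions, and 1 was mitochondrial. At 97 of the regions another transcript or gene gave the centre a second type, such as a 3' UTR, beside the coding exon. Most genes had 1 region, 103 had 2 and 4 had 3. The 4 were AT1G56145, AT5G16680, AT3G62360 and HAC5, a histone acetyltransferase gene, and none of their regions passed the authors' FDR or edgeR. The 3 regions of HAC5 held 11, 11 and 9 reads with the tag and 3, 7 and 4 without it when each was summed over its libraries. Cytochrome P450 genes, a family looked at after CYP78A9 and CYP71B12 had been seen, had 43 regions in 38 of 229 genes (16.6%), where 8.32% of all protein-coding genes had a coding-exon region. Of these 43 regions 1 was called and 2 were 2-fold in every pair, beside 0.247% and 0.575% of all coding-exon regions, and their median log2 enrichment was 0.49, as for all coding-exon regions. WRKY genes, which encode transcription factors of defence and development, had 11 regions in 10 of 67 genes, and none was called.

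A gene start facing the region from outside was less common here than over the whole list. This follows in part from the class itself. A coding-exon region lies inside a gene whose own start was not counted, while 16535 of the listed regions had no annotation at their centre. Of the coding-exon regions 11.8% lay within 1000 bp upstream of a flanking gene, against 47.5% of all listed regions, and 3 of the 6 called regions were among these 288 (1.04%, beside 1.2% of all regions at that distance), in AT4G28564, AT1G67856 and AT1G04280. Farther than 1000 and up to 3000 bp upstream lay 31.9% of coding-exon regions, with the called regions of AT5G03700 and AT2G39560 (0.258%, beside 1.14% of all regions). The remaining 1369 held 1 called region, that of CYP78A9 (0.073%, beside 0.99%). The median log2 enrichment by pair was 0.19, 0.00 and 0.22 within 1000 bp of a neighbour's start and 0.49, 0.14 and 0.42 in the remaining regions, which held a median of 34 and 20 reads. Over all listed regions these medians were 0.18, 0.14 and 0.08 within 1000 bp and 0.42, 0.14 and 0.20 in the remaining regions. From the centres of the called coding-exon regions, the nearest other called region lay between 46500 bp (AT2G39560) and 858829 bp (AT5G03700) away. These distances were not compared with those of the other called regions.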

How the data were processed

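Read counts per region and library were deposited by the authors, per the deposited column definitions, and their values are whole numbers. The authors' p-value columns are Benjamini-Hochberg FDRs (q-values), 1 per replicate, per the same definitions. The authors' log2 column is the log2 rank product of these FDRs and their rank score orders regions by it, per the same definitions. The rank score was used as a name and order for regions, and the log2 column was not used. TAIR10 is the build that the submitters' processing notes name. For the aligner, region caller, filters and the authors' test nothing is given in the sources used here. Region starts are as deposited, with the counting base not given, and ends were computed from start and length. DNA of 150 to 400 bp was amplified for 18 cycles, per the labels' protocols.

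Libraries were matched to groups by title. Log2 enrichment compared same-numbered libraries, scaled by column totals after adding a prior count of 1, itself proportional to library size. Single regions were tested with edgeR 4.0.16 (R 4.3.3) over 24032 regions, with Benjamini-Hochberg adjustment at 0.05 and a replicate block, since the table lists sample and control counts by replicate number. Deviations from group means correlated at 0.449, 0.108 and 0.105 within numbers 1, 2 and 3, above the bound of 0.1, narrowly so for 2 and 3. Unmatched numbers 3 and 2 (tagged, untagged) correlated at 0.0928 and 2 and 3 at 0.0701, close to the matched values, while number 1 correlated with unmatched numbers at -0.239 to -0.171, so the pairing of 2 with 2 and 3 with 3 is weakly set by the data. DESeq2 1.42.0, TMM scaling and the fit without the block were alternatives. On simulated data with known changes a blocked edgeR fit of the same form was tried first, and the alternatives were not tried in this way. Gene names came from RefSeq (TAIR10.1), where 2309 of 2369 genes (97.5%) were found, and its coordinates were not used. Named regions were those past the authors' FDR in all replicates or past edgeR, the 10 highest among those 2-fold in all pairs, the 5 lowest, the 5 with most untagged reads, the 3 nearest outside the FDR and 2-fold members of the gene lists. Other regions, among them CYP71B14, those of listed genes below 2-fold and those of genes with 3 regions, were named after their values were seen. The members, lists and tests were chosen with earlier results of these data known. Regions typed as both coding and 5' UTR (22) were left out. No sequences are given, as no genome was used here. Some results on single genes and families are not reported here.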

Additional observations from a re-analysis of the deposited data

How the results depend on the processing

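For none of these changes was the cause tested, except where a setting's construction gives it. Depth limits single regions, with a median of 21 reads in all. TMM scaling shifted the median of all regions by -0.36, 0.32 and 0.26 (log2) in pairs 1, 2 and 3 and moved the share of coding-exon regions above 0 from 67.9%, 53.0% and 59.6% to 56.0%, 59.8% and 65.7%. The number of called coding-exon regions was 11 at an FDR of 0.1, and it ranged from 9 to 14 without 1 replicate, with 10 without replicate 2 and 14 without replicate 3, where fewer replicates must pass by construction. The edgeR count moved from 6 with the replicate block to 0 with no replicate block, also with TMM, and to 3 with TMM and the block. It ranged from 2 to 7 without 1 replicate, with the block kept. With no block it was 3 without replicate 1, of which 1 (AT3G19070) was lower, and 0 without replicate 2 or 3. A filter with TMM and the block gave 8, and this fit and those with no block that leave out a replicate were added after the data were seen. The median log2 enrichment was 0.075 with a prior count of 10 and 0.16 with at least 30 reads. The regions 2-fold in every pair numbered 5 with a prior count of 10, 98 with no minimum of reads, and from 38 (without replicate 2) to 49 (without replicate 1). The share difference was -0.172 without the called regions, whose choice as higher with the tag sets this fall. It ranged from -0.19 to 0.385 without 1 replicate. The read ratios to introns and 3' UTRs kept their direction without each replicate. Mean log2 values of 49 named regions moved by less than their SD in 238 of 245 repeats, and the other 7 all came from the prior count of 10. Repeats that leave out 1 of 3 pairs cannot move a mean by its SD, by arithmetic. The count of 238 is therefore not read as stability. The calls of the 6 regions past edgeR were lost in 35 of their 70 repeats.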
